A study of Mus musculus with 4 samples.

Results

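The comparison described here is that of *Mst-/-* embryoid bodies (EBs) with wild type EBs at day 4, which is 2 of the 4 arrays of the series. It was taken from the deposited values as the column of the day 4 Mst1/Mst2 knockout array minus that of the day 4 wild type array. The other 2 arrays hold the same genotypes at day 8 and are used only for values set beside those of day 4. RNA was hybridized to Affymetrix mouse exon arrays, on which each probe set lies within a stretch of an exon, with 1 array for each genotype and day. The *Mst-/-* ES cells came from blastocysts of C57BL/6 parents that were *Mst1+/-* *Mst2-/-*, and in both genes they lack exons that encode the kinase domain. The *Mst-/-* lines were derived on a feeder layer of fibroblasts and then grown without feeders in medium with 2 kinase inhibitors and LIF. There are 2 such lines, and which of them was on the arrays is not stated. Strain and origin of the wild type ES cells are not stated in the sources used here. Single cells of either genotype were left to aggregate in non-adherent dishes without the inhibitors and LIF, and the EBs were harvested after 4 or 8 days. One label of the day 8 *Mst-/-* array names day 4, its title names day 8, and the title was followed.

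Mst1 and Mst2 are the mammalian Hippo kinases. They phosphorylate the Lats kinases, which in turn phosphorylate the co-activators Yap and Taz and keep them out of the nucleus, where they would act with the Tead transcription factors. EBs leave the pluripotent state and form a primitive streak-like population, mesoderm and endoderm under Wnt, BMP, Nodal and FGF signals, and cells that do so exchange E-cadherin for other adhesion molecules and lay down matrix. The lists of pathways, metabolism and surface genes below follow those steps.

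A gene's signal is the median log2 signal over its probe sets, and its difference is *Mst-/-* minus wild type EBs on the log2 scale. Its error is the spread (SD) among the probe sets of that gene, which is technical and within the same pair of arrays. With 1 array a genotype no test was possible, no spread between cultures is known, and fewer cells of a type cannot be told apart from less RNA per cell. Background was set on each array by 1013 chemosensory (olfactory or vomeronasal) receptor genes, at the signal that 95% of them did not exceed, which was 6.96 on the *Mst-/-* array and 7.03 on the wild type array. Of 16358 genes, 11943 passed it in *Mst-/-* EBs, in wild type EBs or in both and are called compared. At the study's threshold of 1.5-fold, 1234 genes (10.3%) were higher in *Mst-/-* EBs and 1018 (8.52%) were lower, and the median over all genes compared was 0.01. Read from a gene's brightest probe set, the one with the highest mean signal over both day 4 arrays, the shares were 6.73% and 6.17%. Where that probe set put a called gene within 1.5-fold, or moved its difference by over 1.5 times, its log2 difference is given as that in the brightest. The shares over all probe sets are the background against which the counts of each list are to be read. Among the receptor genes 15.5% lay past the threshold as well, at an SD of 0.44, which limits what it says of dim genes. Where a gene was below background on 1 array, its fold is a bound with that array set at its background.

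The deletion was visible in *Stk4*, the gene of Mst1. The signals of 2 of its 13 probe sets were 3.83 and 4.80 in *Mst-/-* EBs, against 12.03 and 11.83 in wild type EBs, while the other 11 differed by -0.30 to 0.39. No value for *Stk3* (Mst2) was used here. The arrays also differed on the X chromosome, where 86 of 391 genes compared (22%) were higher and 41 (10.5%) lower in *Mst-/-* EBs, at a median of 0.19, against 9.94% higher and 8.44% lower of 11519 autosomal genes at a median of 0.01. Among the Y-linked genes 3 of 4 compared were lower, at a median of -1.99. The Y-linked *Eif2s3y* had 4.07 in *Mst-/-* EBs, below background, and 10.39 in wild type EBs. Its difference was -6.32 ± 1.16 (16 probe sets) at day 4 and -6.16 at day 8. Genes on the X are marked as such below, and the part of the sex chromosomes or of the lines' origin in any difference was not tested. Pluripotent identity genes were mostly higher in *Mst-/-* EBs, with 14 of 20 compared past the threshold, 1 lower and a median of 1.40, and germ layer genes mostly lower, with 13 of 21, 1 higher and a median of -1.16. The germ layer list shares genes with groups below, such as *Hand1* with BMP signaling and *Kdr* with the receptor tyrosine kinases. The part of either identity list in the differences below was not tested. Markers of other cells were dim or mixed, and those of macrophages were higher more often than lower. Of 10 markers of feeder fibroblasts compared 2 were higher and 3 lower, of 7 of macrophages 4 and 1, of 4 of red cells 0 and 1, of 13 of visceral and parietal endoderm 1 and 3, and of 11 of trophoblast 3 and 3. Of the key markers, *Postn* of fibroblasts, *Ptprc* of leukocytes and *Klf1* and *Hbb-bh1* of red cells were below background on both day 4 arrays. Some other markers of these lists were above it on 1 or both arrays. The key markers *Dcn* of fibroblasts and *Csf1r* of macrophages were above it in *Mst-/-* EBs only. *Dcn* had 7.42 in *Mst-/-* EBs and 6.32 in wild type EBs, and *Csf1r* 7.165 and 6.30. *Laptm5* of leukocytes had 9.005 in *Mst-/-* EBs and 7.13 in wild type EBs. Values of their brightest probe sets are not given. *Col1a1* of fibroblasts had 8.16 in *Mst-/-* EBs and 8.62 in wild type EBs. *Cd68* of macrophages had 8.37 in *Mst-/-* EBs and 7.73 in wild type EBs. Whether such cells were present was not tested.

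Genes that report on Yap activity differed in both directions, with more of them higher in *Mst-/-* EBs. The Hippo pathway's own members mostly lay within 1.5-fold. These lists share genes, among them *Ajuba*, *Lats2* and *Ptpn14*, which count in each. Of 26 Yap and Tead target genes compared, 10 were higher (10.3% of all genes) and 4 lower (8.52%), with a median of 0.34. From the brightest probe sets 6 of 27 were higher and 4 lower, at a median of 0.10. *Ccn2*, a matricellular growth factor gene and a usual reporter of Yap, had a signal of 11.42 in *Mst-/-* EBs and 10.12 in wild type EBs, a difference of 1.30 ± 0.11 (SD over 7 probe sets). *Ccn1*, its relative, had 10.74 in *Mst-/-* EBs and 10.09 in wild type EBs, a difference of 0.65 ± 0.09 (7 probe sets, 0.44 in the brightest). *Ajuba*, which encodes a LIM protein that binds the Lats kinases, had 11.39 in *Mst-/-* EBs and 10.30 in wild type EBs, and its difference was 1.08 ± 0.28 (12 probe sets). Each of these genes was thus brighter on the *Mst-/-* array by more than the SD over its probe sets. In the higher direction the largest difference of the list belonged to *Nt5e*, an ecto-nucleotidase of the cell surface (CD73), which was 5.82-fold higher at 2.54 ± 0.58 (13 probe sets). *Gadd45b*, a stress-inducible gene, was 2.25-fold higher (0.56 in the brightest probe set), and *Wwc1*, which encodes the Hippo activator Kibra, was 2.28-fold higher (0.68 in the brightest probe set). Other target genes went the opposite way. *Tgfb2*, a TGF-beta ligand, had 7.69 in *Mst-/-* EBs and 10.24 in wild type EBs, a difference of -2.55 ± 0.82 (19 probe sets). *Fstl1*, a secreted follistatin-like protein, had 10.14 in *Mst-/-* EBs and 11.26 in wild type EBs, a difference of -1.11 ± 0.21 (14 probe sets). *Axl*, a receptor kinase, had -0.13 ± 0.34 (25 probe sets). *Ankrd1* was below background on both arrays.

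Of 28 Hippo kinases, adaptors and Yap regulators, 5 were higher, 3 lower and 20 within 1.5-fold, at a median of 0.13. *Yap1* had 11.05 in *Mst-/-* EBs and 11 in wild type EBs, a difference of 0.05 ± 0.12 (16 probe sets). *Wwtr1*, the gene of Taz, had 0.17 ± 0.18 (10 probe sets). *Lats2* had 0.13 ± 0.28 (14 probe sets), *Tead1* 0.26 ± 0.17 (16 probe sets) and *Tead2* -0.14 ± 0.24 (16 probe sets). The transcripts of the co-activators and of these partners were therefore close on both arrays. *Tead4* was 1.68-fold lower, at -0.75 ± 0.38 (20 probe sets, -0.23 in the brightest). *Amot*, an X-linked gene whose protein holds Yap at cell junctions, had 10.20 in *Mst-/-* EBs and 12.31 in wild type EBs, a difference of -2.12 ± 0.30 (16 probe sets), the largest of this list. *Ptpn14*, a phosphatase that binds Yap, was 1.74-fold higher, at 0.80 ± 0.39 (26 probe sets, 0.53 in the brightest).

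The Tead factors bind the letters GGAATG. RefSeq promoter windows (GRCm38.p6, 250 bases before to 50 after a transcript's start) were matched for 19 of the 27 Yap and Tead target genes on the array, and 8 of them held the letters on either strand, against 16.6% of 27025 genes with a window. Of the 8, 4 were over 1.5-fold higher in *Mst-/-* EBs (*Ajuba*, *Ccn1*, *Edn1* and *Ptpn14*), 3 were within the threshold and 1 was not compared. Of the 11 without the letters 3 were higher and 4 lower. The windows of *Ccn1* and *Ajuba* are shown because the genes were higher and that of *Ajuba* holds the letters at 2 places, and the capitals mark the letters, here as CATTCC, the reverse strand. In *Ccn1* (chr3:145649936-145650235, minus strand) the letters begin at -103 from the transcript's start, and in *Ajuba* (chr14:54577612-54577911, minus strand) at -186 and -164. A match is a description of the window and no evidence of binding.
Ccn1: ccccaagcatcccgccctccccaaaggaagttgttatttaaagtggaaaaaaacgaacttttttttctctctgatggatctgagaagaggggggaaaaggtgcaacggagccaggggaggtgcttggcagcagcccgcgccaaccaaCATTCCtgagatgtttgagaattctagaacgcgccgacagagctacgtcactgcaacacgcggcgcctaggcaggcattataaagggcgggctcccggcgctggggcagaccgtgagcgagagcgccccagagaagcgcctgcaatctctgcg
Ajuba: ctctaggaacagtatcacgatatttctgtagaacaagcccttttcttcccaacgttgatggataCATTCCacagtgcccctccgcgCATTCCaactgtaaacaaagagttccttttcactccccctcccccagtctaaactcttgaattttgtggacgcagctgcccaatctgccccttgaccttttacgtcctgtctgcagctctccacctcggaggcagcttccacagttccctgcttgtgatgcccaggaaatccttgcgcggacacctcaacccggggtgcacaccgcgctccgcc

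**Figure D1:**
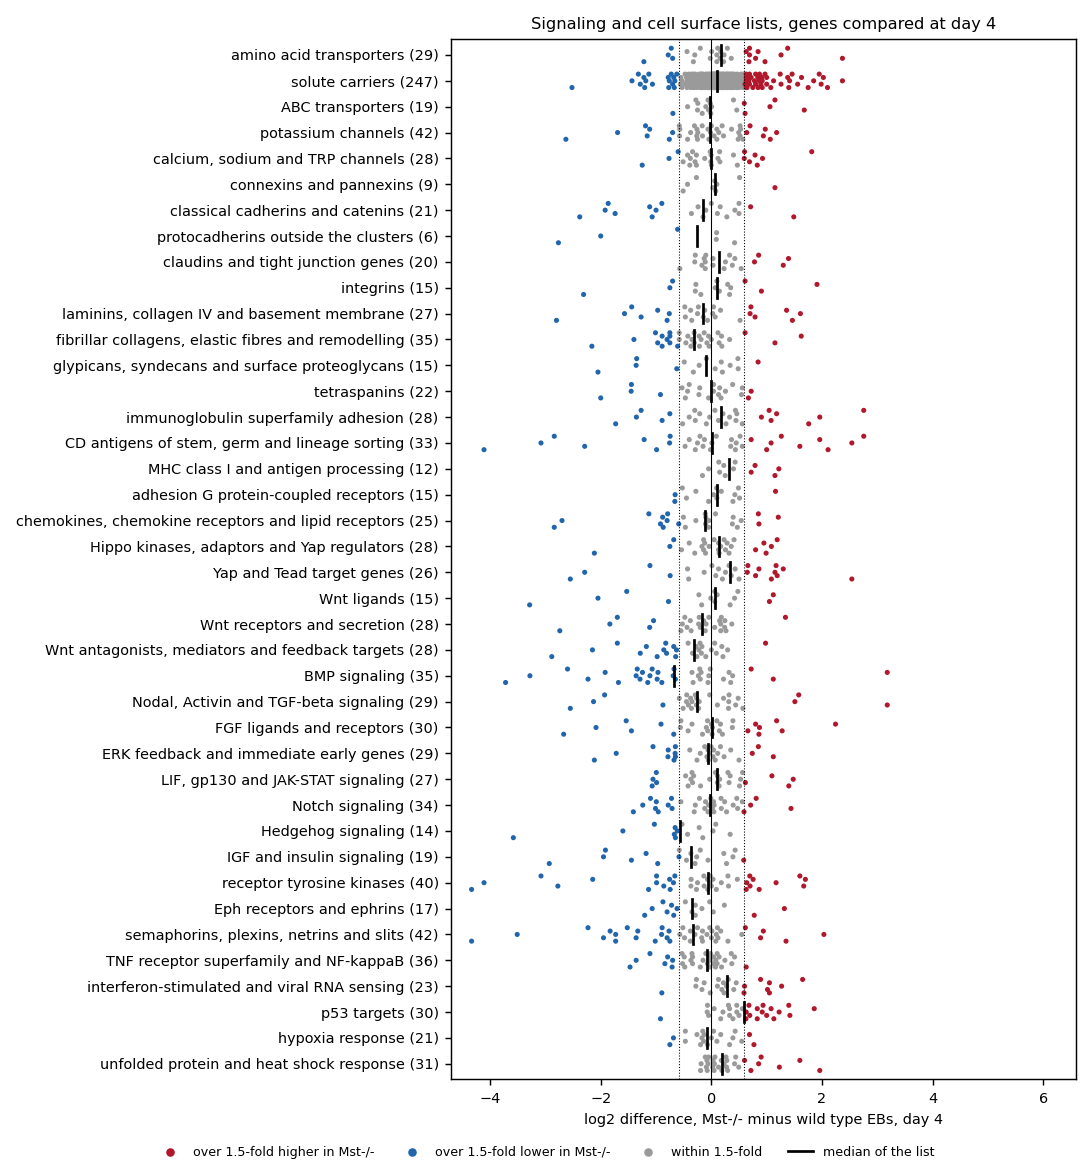
Each point is a gene compared at day 4, placed by its log2 difference (*Mst-/-* minus wild type EBs, x axis), for the signaling and cell surface lists (y axis, with the number of genes compared). Black bars are list medians, dotted lines the 1.5-fold threshold, and red and blue points lie past it; BMP signaling has its median at -0.68 and p53 targets at 0.59.

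BMP signaling had the lowest median of the signaling lists plotted by gene. Of 35 genes compared, 19 were lower in *Mst-/-* EBs, 3 were higher and 13 lay within 1.5-fold, for a median of -0.68, or -0.36 when each gene's brightest probe set alone was read. The ligands *Bmp5*, *Bmp2*, *Bmp7* and *Bmp4* were lower. *Bmp5* had 5.50 in *Mst-/-* EBs and 9.22 in wild type EBs, which is below background in *Mst-/-* EBs and at least 4.79-fold lower. *Bmp4*, the ligand that induces mesoderm, had 8.90 in *Mst-/-* EBs and 9.97 in wild type EBs, a difference of -1.07 ± 0.61 (5 probe sets). *Bmp2* was 2.57-fold lower, at -1.36 ± 0.95 (3 probe sets, -3.02 in the brightest). Each of these ligands was dimmer on the *Mst-/-* array. *Bmp7*, which is expressed in many embryonic tissues, and *Smad1*, which carries the signal to the nucleus, were chosen after their values were seen and were 2.53-fold lower and 2.22-fold lower. Genes that BMP induces were lower too. *Id1* and *Id3*, inhibitors of helix-loop-helix factors and direct BMP targets, had -0.98 ± 0.55 (6 probe sets, -1.77 in the brightest) and -0.96 ± 0.17 (4 probe sets). *Msx2*, a homeobox gene, had 8.52 in *Mst-/-* EBs and 11.12 in wild type EBs, a difference of -2.60 ± 0.65 (4 probe sets). *Msx1* had 9.24 in *Mst-/-* EBs and 10.92 in wild type EBs, a difference of -1.68 ± 0.27 (3 probe sets). *Hand1*, a mesoderm factor downstream of BMP, was 9.71-fold lower.

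Inhibitors of the pathway were among the lower genes. *Bmper*, which encodes a BMP-binding secreted protein, had 7.0 in *Mst-/-* EBs and 9.23 in wild type EBs, a difference of -2.23 ± 1.12 (19 probe sets). *Bambi*, a pseudoreceptor that BMP itself induces, was 2.37-fold lower at -1.25 ± 0.11 (6 probe sets) and was chosen after its value was seen. The 3 genes in the higher direction were *Smad7*, an inhibitory Smad, with 0.72 ± 0.17 (13 probe sets), and the ligand genes *Bmp8b*, with 1.12 ± 0.46 (10 probe sets), and *Gdf3*, with 11.73 in *Mst-/-* EBs and 8.55 in wild type EBs and a difference of 3.18 ± 1.20 (3 probe sets). Of these only *Gdf3* was named by the rule applied to all lists. *Gdf3* is also a gene of pluripotent cells. The GC-rich letters GGCGCC, which Smads of the BMP branch can bind, were in the windows of 9 of 24 BMP signaling genes with a RefSeq promoter, against 13.4% of all genes with one. Of the 9, 2 were lower and none higher, and of the 15 without the letters 10 were lower and 1 higher.

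Antagonists and feedback genes of Wnt signaling were lower in *Mst-/-* EBs more often than higher, and the ligands were mixed. Of 28 antagonists, mediators and feedback targets compared, 12 were lower in *Mst-/-* EBs and 1 higher (median -0.31, or -0.16 from the brightest probe sets). *Dkk1*, a secreted antagonist and Wnt target, had 9.60 in *Mst-/-* EBs and 11.75 in wild type EBs, a difference of -2.15 ± 0.21 (7 probe sets). *Frzb*, which binds Wnt ligands, had 8.21 in *Mst-/-* EBs and 11.10 in wild type EBs, a difference of -2.88 ± 1.16 (10 probe sets, -1.27 in the brightest). *Sfrp1* of the same family had 8.99 in *Mst-/-* EBs and 10.17 in wild type EBs, a difference of -1.18 ± 0.21 (4 probe sets). The feedback inhibitor *Nkd1* was 3.25-fold lower (-0.43 in the brightest probe set), and *Axin2*, the usual reporter of beta-catenin, was 1.60-fold lower at -0.68 ± 0.21 (16 probe sets). *Lef1*, the transcription factor through which beta-catenin acts and a target itself, had 9.58 in *Mst-/-* EBs and 10.56 in wild type EBs, a difference of -0.98 ± 0.35 (24 probe sets). *Sp5*, another direct target, stayed within 1.5-fold at -0.23 ± 0.15 (10 probe sets).

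Of 15 Wnt ligands, 2 were higher and 4 lower, at a median of 0.06. *Wnt5a*, a ligand of beta-catenin-independent signaling, had 6.81 in *Mst-/-* EBs and 10.10 in wild type EBs and was at least 8.79-fold lower. *Wnt3*, the ligand of the primitive streak, was 1.71-fold lower at -0.78 ± 0.34 (6 probe sets, -0.40 in the brightest). *Wnt8a* was 2.17-fold higher at 1.12 ± 0.80 (11 probe sets, 1.82 in the brightest). *Wnt3a*, *Wnt5b* and *Wnt11* were within 1.5-fold, with differences of -0.01, -0.17 and 0.06. Of 28 genes of receptors and secretion 5 were lower and 1 higher. *Rspo3*, a secreted amplifier of Wnt signals, had 8.69 in *Mst-/-* EBs and 11.43 in wild type EBs, a difference of -2.74 ± 0.65 (8 probe sets). Its receptor *Lgr5* had 8.62 in *Mst-/-* EBs and 10.45 in wild type EBs, a difference of -1.83 ± 0.47 (22 probe sets). *Wls*, the carrier that takes Wnt proteins to the surface, was 3.25-fold lower at -1.70 ± 0.54 (17 probe sets, -0.18 in the brightest). The frizzled receptor *Fzd3* was 2.06-fold lower, and *Fzd7* and *Fzd2* lay within the threshold at -0.48 and 0.24.

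The factors of the Tcf and Lef family bind the letters TCAAAG. They were present in the windows of 6 of 22 antagonists, mediators and feedback targets with a RefSeq promoter, against 18.2% of all 27025 genes with one. Of these 6, 4 were lower (*Dkk1*, *Frzb*, *Lef1* and *Sp8*, the last named for its window and not by the rule) and 2 within 1.5-fold, and of the 16 without the letters 6 were lower. The windows of *Lef1* and *Dkk1* are shown because each holds the letters at 2 places and each gene is a known target of the pathway that was lower. In *Lef1* (chr3:131156044-131156343, plus strand, one of its 4 windows) they begin at -180 and -120, and in *Dkk1* (chr19:30549447-30549746, minus strand) at -174 and, as CTTTGA on the reverse strand, at -117.
Lef1: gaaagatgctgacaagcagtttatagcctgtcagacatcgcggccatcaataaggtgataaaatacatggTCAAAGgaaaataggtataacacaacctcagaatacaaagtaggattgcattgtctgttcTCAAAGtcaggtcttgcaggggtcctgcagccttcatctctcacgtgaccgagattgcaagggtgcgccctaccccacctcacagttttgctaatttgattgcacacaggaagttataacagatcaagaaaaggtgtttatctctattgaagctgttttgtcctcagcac
Dkk1: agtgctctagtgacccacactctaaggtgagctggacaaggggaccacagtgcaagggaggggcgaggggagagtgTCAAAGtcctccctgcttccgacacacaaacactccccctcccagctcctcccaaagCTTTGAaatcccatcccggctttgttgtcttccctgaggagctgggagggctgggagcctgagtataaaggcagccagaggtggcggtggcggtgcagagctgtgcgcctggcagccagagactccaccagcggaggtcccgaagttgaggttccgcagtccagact

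**Figure D2:**
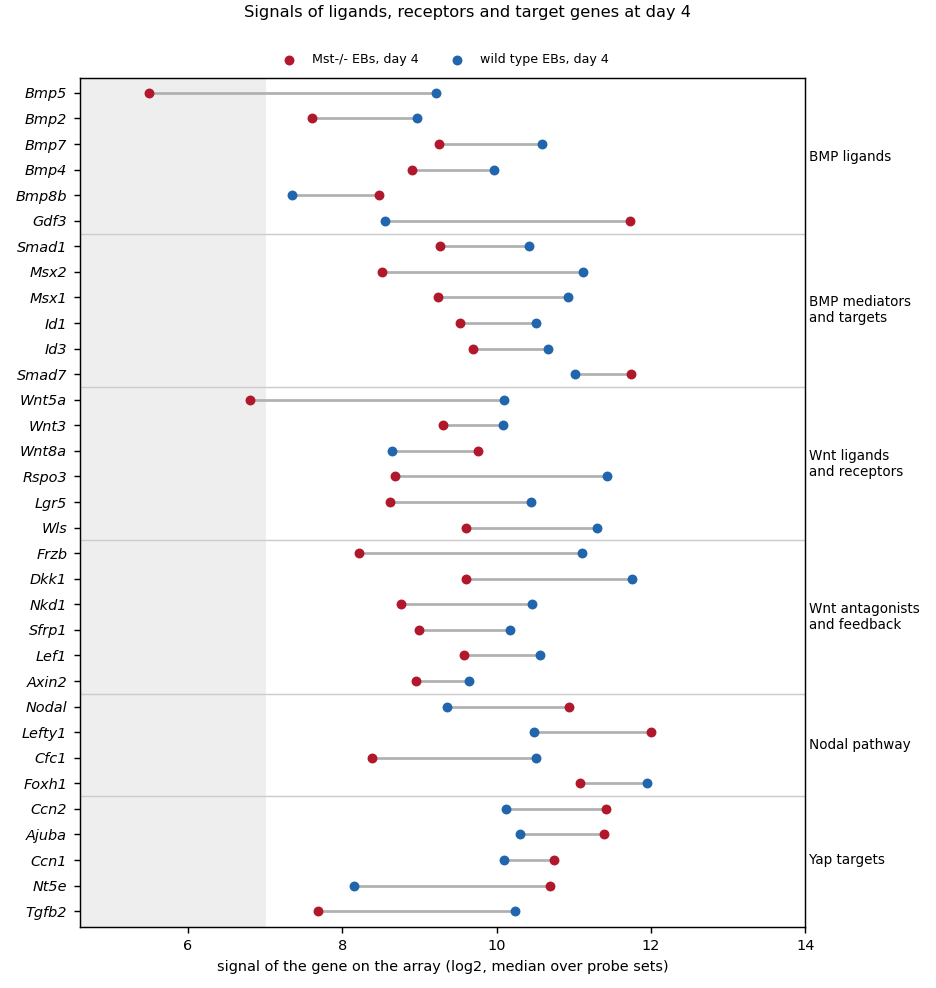
Signals (x axis, log2, median over probe sets) of ligands, receptors and target genes (y axis) on the day 4 *Mst-/-* array (red) and the day 4 wild type array (blue), 1 array each. The grey area lies below background, which *Bmp5* and *Wnt5a* reached in *Mst-/-* EBs, and *Gdf3*, *Nodal* and the Yap targets *Ccn2*, *Ajuba*, *Ccn1* and *Nt5e* are among those brighter in *Mst-/-* EBs.

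Members of the Nodal pathway were split. Of 29 genes of Nodal, Activin and TGF-beta signaling, 3 were higher in *Mst-/-* EBs and 4 lower, with a median of -0.27. *Nodal*, the ligand that patterns the streak, had 10.94 in *Mst-/-* EBs and 9.36 in wild type EBs, a difference of 1.58 ± 0.72 (6 probe sets). Its feedback inhibitor *Lefty1* had 12 in *Mst-/-* EBs and 10.49 in wild type EBs, a difference of 1.51 ± 0.84 (7 probe sets). The co-receptor *Cfc1*, in contrast, had 8.38 in *Mst-/-* EBs and 10.51 in wild type EBs, a difference of -2.13 ± 0.50 (9 probe sets). *Foxh1*, the partner of Smad2 at Nodal targets, was 1.83-fold lower at -0.88 ± 0.15 (6 probe sets). *Tgfb1*, a TGF-beta ligand, was 3.81-fold lower at -1.93 ± 0.75 (9 probe sets).

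Among 30 FGF ligands and receptors, 7 were higher and 6 lower (4 and 8 from the brightest probe sets). *Fgf4*, the autocrine ligand of pluripotent cells, was 2.27-fold higher with 1.18 ± 0.85 (4 probe sets), while *Fgf10* had 8.05 in *Mst-/-* EBs and 10.72 in wild type EBs, a difference of -2.67 ± 0.65 (9 probe sets). *Fgf3* was at least 4.13-fold lower. The receptor *Fgfr2* had 10.06 in *Mst-/-* EBs and 8.78 in wild type EBs, a difference of 1.28 ± 0.32 (25 probe sets). *Fgfr1* was nearly equal at -0.09 ± 0.11 (24 probe sets). Some readouts of ERK activity were within 1.5-fold. *Dusp6* had 0.03 ± 0.12 (6 probe sets), *Spry4* -0.06 ± 0.08 (5 probe sets), *Etv4* 0.07 ± 0.15 (13 probe sets) and *Egr1* -0.06 ± 0.34 (18 probe sets). Of 29 ERK feedback and immediate early genes 3 were higher and 9 lower (2 and 4 from the brightest probe sets). *Dusp4*, a phosphatase of ERK, was 3.29-fold lower at -1.72 ± 0.30 (7 probe sets), *Rasgrp3*, an activator of Ras, 4.33-fold lower, and *Etv5* was 1.80-fold higher at 0.85 ± 0.41 (17 probe sets).

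The LIF pathway, which keeps mouse ES cells pluripotent, showed 4 genes higher and 4 lower of 27. *Lifr*, the receptor, was 2.08-fold lower at -1.05 ± 0.23 (20 probe sets). The shared subunit *Il6st* had -0.32 ± 0.14 (18 probe sets). *Stat3* had 0.07 ± 0.17 (28 probe sets) and *Socs3*, its feedback target, 0.15 ± 0.18 (8 probe sets). The kinase genes *Pim1* and the X-linked *Pim2* were higher, with 10.79 in *Mst-/-* EBs and 9.39 in wild type EBs for *Pim1* and 12.44 in *Mst-/-* EBs and 10.96 in wild type EBs for *Pim2*, differences of 1.40 ± 0.53 (8 probe sets, 0.34 in the brightest) and 1.48 ± 0.28 (9 probe sets).

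Notch, Hedgehog and IGF genes were lower more often than higher. Of 34 Notch genes 9 were lower and 4 higher at a median of -0.03 (7 and 1 from the brightest probe sets). The ligand genes *Dll1* and *Dll3*, which mark paraxial mesoderm, were 2.14-fold lower (-1.70 in the brightest probe set) and 2.36-fold lower, and the target *Hey1* was 2.66-fold lower. *Jag2*, another ligand, had 9.52 in *Mst-/-* EBs and 8.07 in wild type EBs, a difference of 1.44 ± 0.55 (26 probe sets, 0.56 in the brightest), in the opposite direction. Of 14 Hedgehog genes 7 were lower and none higher, at a median of -0.57 (4 of 17 lower and -0.25 from the brightest probe sets alone). The co-receptor *Gas1* had 8.76 in *Mst-/-* EBs and 10.36 in wild type EBs, a difference of -1.60 ± 0.81 (9 probe sets, -0.25 in the brightest). *Smo*, the signal transducer, was 1.57-fold lower at -0.66 ± 0.16 (20 probe sets), or -0.55 as a mean over probe sets. The pathway's own targets *Ptch1* and *Gli1* stayed within the threshold, at -0.53 ± 0.36 (24 probe sets) and -0.22 ± 0.34 (19 probe sets).

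Of 19 genes of IGF and insulin signaling, 7 were lower and 1 higher, at a median of -0.37 (4 lower and -0.20 from the brightest probe sets). *Igf2*, an imprinted growth factor gene, had 9.01 in *Mst-/-* EBs and 11.94 in wild type EBs, a difference of -2.93 ± 1.32 (15 probe sets). *Grb10*, an imprinted adaptor that restrains the insulin receptor, had 9.32 in *Mst-/-* EBs and 11.27 in wild type EBs, a difference of -1.95 ± 0.47 (23 probe sets). *Irs1*, the receptor's substrate, had 8.23 in *Mst-/-* EBs and 9.20 in wild type EBs, a difference of -0.97 ± 0.33 (7 probe sets, -0.32 in the brightest). The binding protein gene *Igfbp4* was 3.77-fold lower. The receptor *Igf1r* itself had -0.20 ± 0.21 (23 probe sets).

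Receptors that sort mesoderm and vascular cells were among the largest differences on the surface. Of 40 receptor tyrosine kinases and their ligands, 10 were higher in *Mst-/-* EBs and 13 lower (5 and 11 from the brightest probe sets). *Kdr*, the VEGF receptor that marks early mesoderm, had 7.11 in *Mst-/-* EBs and 11.22 in wild type EBs, a difference of -4.11 ± 0.82 (33 probe sets). *Nrp1*, a co-receptor of VEGF and semaphorins, had 6.96 in *Mst-/-* EBs and 11.30 in wild type EBs, a difference of -4.33 ± 1.28 (22 probe sets, -0.60 in the brightest). *Pdgfra*, a receptor of paraxial mesoderm and primitive endoderm, had 7.49 in *Mst-/-* EBs and 10.57 in wild type EBs, a difference of -3.08 ± 0.88 (27 probe sets). On the *Mst-/-* array these genes lay at or just above background. *Kitl*, the ligand of Kit, was 6.84-fold lower, and *Kit* was 1.68-fold lower at -0.74 ± 0.31 (22 probe sets). *Flt1* was 1.99-fold lower at -0.99 ± 0.39 (33 probe sets). Other receptors were brighter in *Mst-/-* EBs. *Erbb3*, a neuregulin receptor, had 10.63 in *Mst-/-* EBs and 8.96 in wild type EBs, a difference of 1.67 ± 0.37 (31 probe sets). *Tek*, the angiopoietin receptor, was at least 2.42-fold higher.

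Guidance molecules were lower in *Mst-/-* EBs more often than higher. Of 42 semaphorins, plexins, netrins and slits, 16 were lower and 5 higher, at a median of -0.34 (12 and 2 from the brightest probe sets). *Sema3a*, a secreted repellent, had 5.99 in *Mst-/-* EBs and 9.50 in wild type EBs and was at least 5.82-fold lower (-1.27 in the brightest probe set). The semaphorin receptor *Plxna2* had 8.37 in *Mst-/-* EBs and 10.60 in wild type EBs, a difference of -2.23 ± 0.46 (40 probe sets), and *Robo1*, the receptor of slits, had 9.20 in *Mst-/-* EBs and 10.93 in wild type EBs, a difference of -1.73 ± 0.33 (34 probe sets), with its ligand *Slit2* at -1.52 ± 0.47 (47 probe sets, -0.55 in the brightest). *Sema3e* went the other way, with 10.05 in *Mst-/-* EBs and 8.02 in wild type EBs and a difference of 2.04 ± 0.63 (20 probe sets). Among 17 Eph receptors and ephrins 7 were lower and 2 higher. *Epha4* and *Epha7* were 2.10-fold lower and 2.31-fold lower, and *Epha2*, a receptor gene expressed in ES cells, had 11.11 in *Mst-/-* EBs and 9.79 in wild type EBs, a difference of 1.32 ± 0.34 (19 probe sets, 0.57 in the brightest). *Epha1* was 1.71-fold higher at 0.78 ± 0.27 (20 probe sets).

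Adhesion genes showed lower mesenchymal cadherins beside an E-cadherin that was little different. Of 21 classical cadherins and catenins, 8 were lower and 2 higher. *Cdh2*, N-cadherin, had 10.73 in *Mst-/-* EBs and 12.65 in wild type EBs, a difference of -1.92 ± 0.32 (19 probe sets). *Cdh11*, a mesenchymal cadherin, had 10.43 in *Mst-/-* EBs and 12.29 in wild type EBs, a difference of -1.86 ± 0.41 (16 probe sets, -0.95 in the brightest). *Cdh6* was 3.34-fold lower, and *Cdh5*, the cadherin of endothelium, 2.17-fold lower (-0.35 in the brightest probe set). *Cdh1*, E-cadherin, had 12.63 in *Mst-/-* EBs and 12.21 in wild type EBs, a difference of 0.42 ± 0.13 (18 probe sets), within the threshold. *Cdh3*, P-cadherin, was 2.81-fold higher at 1.49 ± 0.72 (17 probe sets). Of 6 protocadherins outside the gene clusters, 3 were lower and none higher. Their median was -0.26, but -2.0 at the 99th percentile of the receptor genes as background and 0.09 where both arrays had to be above background. *Pcdh18* had 8.26 in *Mst-/-* EBs and 11.02 in wild type EBs, a difference of -2.77 ± 0.42 (8 probe sets). *Pcdh7* had 9.69 in *Mst-/-* EBs and 11.69 in wild type EBs, a difference of -2.0 ± 0.38 (7 probe sets). Of 20 claudin and tight junction genes 4 were higher and none lower, at a median of 0.13 that was -0.04 from the brightest probe sets, among them *Cldn1*, at least 2.08-fold higher (1.99 in the brightest probe set). *Cldn6* and *Cldn7* were within 1.5-fold, at -0.11 and 0.26. The gap junction gene *Gja1* had -0.27 ± 0.04 (3 probe sets), and 1 of 9 connexins and pannexins, *Gjb2*, was past the threshold, 2.22-fold higher.

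Integrins did not lean to a side, with 3 higher and 3 lower of 15. *Itga8*, which pairs with beta1 and binds nephronectin, had 7.35 in *Mst-/-* EBs and 9.66 in wild type EBs, a difference of -2.31 ± 0.67 (33 probe sets). *Itga5*, the fibronectin receptor subunit, had 10.12 in *Mst-/-* EBs and 10.87 in wild type EBs, a difference of -0.75 ± 0.23 (33 probe sets, -0.55 in the brightest). *Itga3*, a laminin receptor subunit, had 9.72 in *Mst-/-* EBs and 7.81 in wild type EBs, a difference of 1.91 ± 0.70 (33 probe sets). *Itgav* and *Itgb5* were near 0, at 0.10 and -0.19.

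Matrix genes of fibres and their remodelling were lower in *Mst-/-* EBs more often than higher. Of 35 genes of fibrillar collagens, elastic fibres and remodelling, 11 were lower and 3 higher, at a median of -0.31, or -0.58 at the 99th percentile background. *Fbn1*, the main protein of microfibrils, had 7.36 in *Mst-/-* EBs and 8.37 in wild type EBs, a difference of -1.01 ± 0.62 (79 probe sets). Its partner *Mfap2* had 8.19 in *Mst-/-* EBs and 9.15 in wild type EBs, a difference of -0.97 ± 0.62 (10 probe sets, -0.01 in the brightest). The membrane protease *Mmp14* and the inhibitor *Timp2* were both 1.85-fold lower. The X-linked inhibitor *Timp1* was 3.08-fold higher, at 1.62 ± 0.26 (6 probe sets), and *Thbs1*, thrombospondin, 2.22-fold higher. *Col3a1* was equal on both arrays at 0.0 ± 0.44 (54 probe sets). *Col1a1* had -0.46 ± 0.50 (53 probe sets). Of 27 basement membrane genes 6 were higher and 7 lower (2 and 7 from the brightest probe sets). *Fn1*, fibronectin, had 11.94 in *Mst-/-* EBs and 13.51 in wild type EBs, a difference of -1.57 ± 0.36 (54 probe sets). *Frem1*, a matrix protein of embryonic basement membranes, was at least 5.10-fold lower (-1.86 in the brightest probe set). *Col18a1*, a collagen of basement membranes, was 2.76-fold higher at 1.47 ± 0.70 (46 probe sets), and *Lama1* and *Col4a1* were within 1.5-fold at -0.47 and -0.48.

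Proteoglycans and the enzymes that build their chains were also lower more often than higher. Of 15 glypicans, syndecans and other surface proteoglycans 4 were lower and 1 higher. *Gpc3*, an X-linked glypican of mesoderm and endoderm, had 11.14 in *Mst-/-* EBs and 13.19 in wild type EBs, a difference of -2.05 ± 0.26 (11 probe sets). *Gpc6* was 2.57-fold lower (-2.27 in the brightest probe set), and *Vcan*, the large chondroitin sulfate proteoglycan versican, had 10.12 in *Mst-/-* EBs and 11.47 in wild type EBs, a difference of -1.35 ± 0.17 (20 probe sets). *Gpc4*, the X-linked glypican of ES cells, had 0.48 ± 0.14 (13 probe sets), and *Sdc1* -0.33 ± 0.39 (8 probe sets). Of 36 genes of heparan and chondroitin sulfate synthesis 10 were lower and 2 higher, at a median of -0.26 (8 and 5 from the brightest probe sets). *Has2*, the hyaluronan synthase, had 9.24 in *Mst-/-* EBs and 10.47 in wild type EBs, a difference of -1.23 ± 0.27 (6 probe sets). *Hs3st3b1*, a 3-O-sulfotransferase, was 3.36-fold lower at -1.75 ± 0.89 (5 probe sets). The 2 genes higher over all probe sets both encode 6-O-sulfotransferases, *Hs6st1*, 1.67-fold higher, and the X-linked *Hs6st2*, 1.57-fold higher (0.57 as a mean over probe sets).

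**Figure D3:**
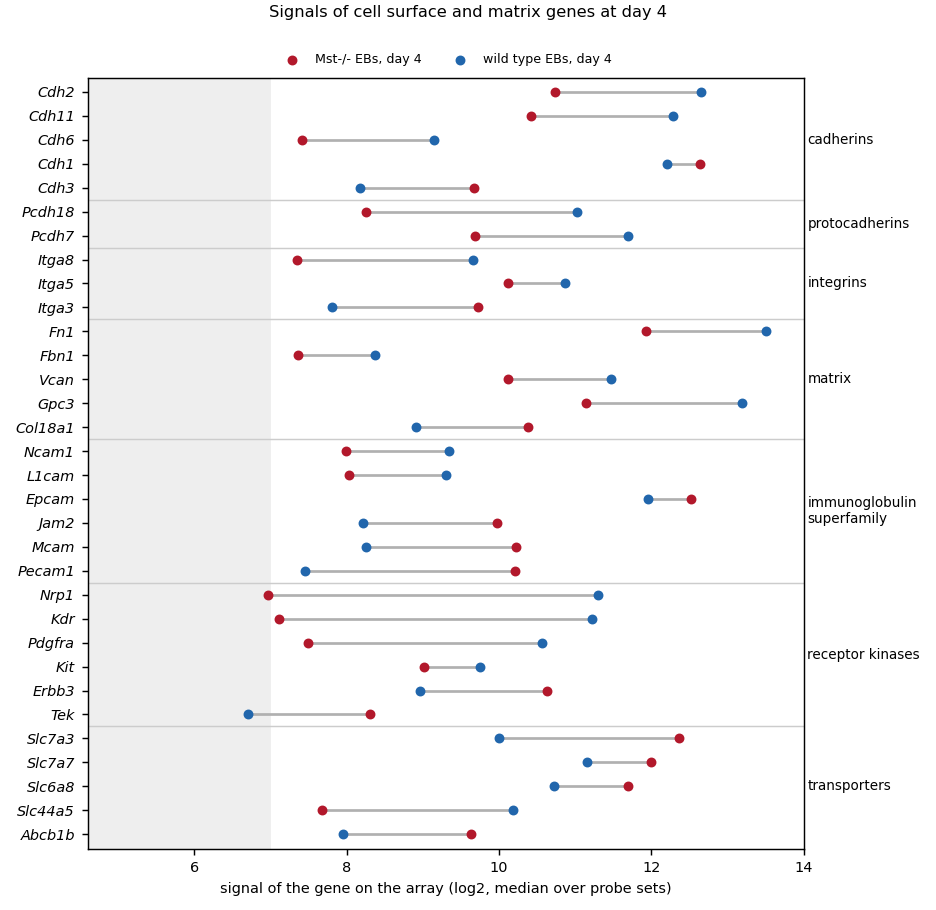
Signals (x axis, log2, median over probe sets) of adhesion, matrix, receptor and transporter genes (y axis) on the day 4 *Mst-/-* array (red) and the day 4 wild type array (blue), 1 array each, with the range below background in grey. *Kdr* and *Nrp1* lay near background in *Mst-/-* EBs, *Cdh1* and *Epcam* differed by less than 1.5-fold, and *Pecam1*, *Mcam*, *Itga3* and *Slc7a3* were brighter in *Mst-/-* EBs.

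Immunoglobulin-type adhesion molecules went in both directions. Of 28 compared 7 were higher and 5 lower, at a median of 0.17 (4, 6 and -0.06 from the brightest probe sets). *Pecam1*, an adhesion molecule of endothelium that ES cells also carry, had 10.21 in *Mst-/-* EBs and 7.45 in wild type EBs, a difference of 2.75 ± 0.94 (18 probe sets, 1.36 in the brightest). *Mcam* (CD146) had 10.22 in *Mst-/-* EBs and 8.26 in wild type EBs, a difference of 1.96 ± 0.82 (21 probe sets, 0.89 in the brightest). *Jam2* had 9.97 in *Mst-/-* EBs and 8.21 in wild type EBs, a difference of 1.76 ± 0.76 (15 probe sets, 0.19 in the brightest). *Icam1* was 2.11-fold higher (0.15 in the brightest probe set). *Ncam1* had 7.99 in *Mst-/-* EBs and 9.34 in wild type EBs, a difference of -1.35 ± 0.61 (16 probe sets, -2.15 in the brightest). The X-linked *L1cam* had 8.03 in *Mst-/-* EBs and 9.30 in wild type EBs, a difference of -1.27 ± 0.43 (29 probe sets, -0.75 in the brightest). *Epcam*, the epithelial adhesion molecule, stayed within the threshold at 0.56 ± 0.10 (9 probe sets). Of 33 CD antigens used in sorting 9 were higher and 8 lower, at a median of 0.01 (0.36 at the 99th percentile background), and the lower ones included the mesoderm receptors *Kdr*, *Pdgfra* and *Cxcr4*. *Thy1* and *Alpl*, alkaline phosphatase, were within 1.5-fold, at -0.12 and 0.43. *Folr1*, the folate receptor, was 4.32-fold higher at 2.11 ± 1.37 (9 probe sets). Of 22 tetraspanins 2 were higher and 4 lower. *Cd9*, a tetraspanin of ES cells, was 1.65-fold higher at 0.72 ± 0.33 (10 probe sets), *Cd81* had 0.26 ± 0.10 (12 probe sets), and *Tspan18* and the X-linked *Tspan6* were 4.0-fold lower and 2.72-fold lower.

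In the list of chemokines and related ligands with the receptors of chemokines and lipids, 9 of 25 genes were lower and 3 higher, and the ligand *Cxcl12* was among the higher ones. *Cxcr4*, the receptor of Cxcl12 on migrating mesendoderm, had 7.36 in *Mst-/-* EBs and 10.20 in wild type EBs, a difference of -2.84 ± 1.35 (4 probe sets). *Cxcl12* itself was 2.31-fold higher at 1.21 ± 0.72 (9 probe sets, 0.06 in the brightest). *Aplnr*, the apelin receptor of early mesoderm, had 9.05 in *Mst-/-* EBs and 11.75 in wild type EBs, a difference of -2.70 ± 0.35 (3 probe sets). Its ligand *Apln*, X-linked, had -0.11 ± 0.26 (5 probe sets). *F2r*, the thrombin receptor, was 1.83-fold lower at -0.87 ± 0.11 (5 probe sets). Among 12 genes of MHC class I and antigen processing 4 were higher and none lower, at a median of 0.32, which was -0.02 from the brightest probe sets alone. Macrophages and leukocytes carry much class I, and 4 of 7 of their markers were higher at a median of 0.64. From the brightest probe sets 2 of 11 were higher at a median of 0.09. *Ptprc* was below background on both arrays, and *Csf1r* was among the higher ones. The part of such cells in this list was not tested. *Psmb9*, a subunit of the immunoproteasome, had 8.56 in *Mst-/-* EBs and 7.34 in wild type EBs, a difference of 1.22 ± 0.47 (7 probe sets, 0.03 in the brightest). *B2m*, the light chain of class I, had -0.16 ± 0.12 (5 probe sets). Of 15 adhesion G protein-coupled receptors 1 was higher and 2 lower.

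Enzymes of surface sugars differed in both directions. Of 25 genes that build Lewis, lactosamine and sialic acid epitopes, 5 were higher and 7 lower, at a median of -0.01. Of the 7 lower genes 4 encode sialyltransferases. *St3gal6* had 8.65 in *Mst-/-* EBs and 10.55 in wild type EBs, a difference of -1.90 ± 0.37 (12 probe sets). *St6gal1* had 9.77 in *Mst-/-* EBs and 10.76 in wild type EBs, a difference of -0.99 ± 0.29 (15 probe sets). *St6galnac4* was 2.82-fold lower (-0.92 in the brightest probe set). *B3gnt2*, which extends lactosamine chains, was 1.98-fold higher at 0.98 ± 0.14 (4 probe sets), and *B3gnt7*, of the same family, 2.03-fold higher. *Fut4*, a fucosyltransferase, was below background on both arrays. Of 23 genes of glycosphingolipids and ceramide 3 were higher and 2 lower. *Ugt8a*, which makes galactosylceramide, had 9.07 in *Mst-/-* EBs and 7.12 in wild type EBs, a difference of 1.96 ± 0.26 (6 probe sets), *Asah1*, acid ceramidase, was 2.0-fold higher (0.64 in the brightest probe set), and *St3gal1* 2.19-fold lower (-1.74 in the brightest probe set).

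Of 247 solute carriers compared 44 were higher in *Mst-/-* EBs and 18 lower (32 and 14 of 290 from the brightest probe sets). Of 29 amino acid transporters 10 were higher and 4 lower, at a median of 0.17, but from the brightest probe sets 5 were higher and 3 lower at a median of -0.05. *Slc7a3*, an X-linked carrier of arginine and lysine, had 12.37 in *Mst-/-* EBs and 9.99 in wild type EBs, a difference of 2.37 ± 0.48 (16 probe sets). *Slc7a7*, a light chain for cationic amino acids, had 12 in *Mst-/-* EBs and 11.15 in wild type EBs, a difference of 0.84 ± 0.23 (12 probe sets, 0.50 in the brightest). The X-linked creatine carrier *Slc6a8* was 1.96-fold higher at 0.97 ± 0.16 (21 probe sets, 0.56 in the brightest). *Slc38a4* and the taurine carrier *Slc6a6* were 1.65-fold lower (-0.41 in the brightest probe set) and 1.72-fold lower. Beyond amino acids, *Slc44a5*, of the family of choline carriers, had 7.67 in *Mst-/-* EBs and 10.19 in wild type EBs, a difference of -2.52 ± 1.15 (33 probe sets). Of 19 ABC transporters 5 were higher and 1 lower (2 and 2 from the brightest probe sets). *Abcb1b*, a multidrug exporter, had 9.63 in *Mst-/-* EBs and 7.95 in wild type EBs, a difference of 1.68 ± 0.54 (29 probe sets). *Abcg2*, the exporter of the side population, was 1.53-fold higher at 0.61 ± 0.17 (19 probe sets, 0.51 in the brightest). Channels were mixed, with 6 higher and 7 lower of 42 potassium channels and 7 and 3 of 28 calcium, sodium and TRP channels. From the brightest probe sets these were 3 and 6 of 55 and 4 and 2 of 49. *Kcnj3*, an inward rectifier, was 2.09-fold higher, and *Kcns3*, a modulatory subunit, 2.17-fold lower (-0.14 in the brightest probe set).

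**Figure D4:**
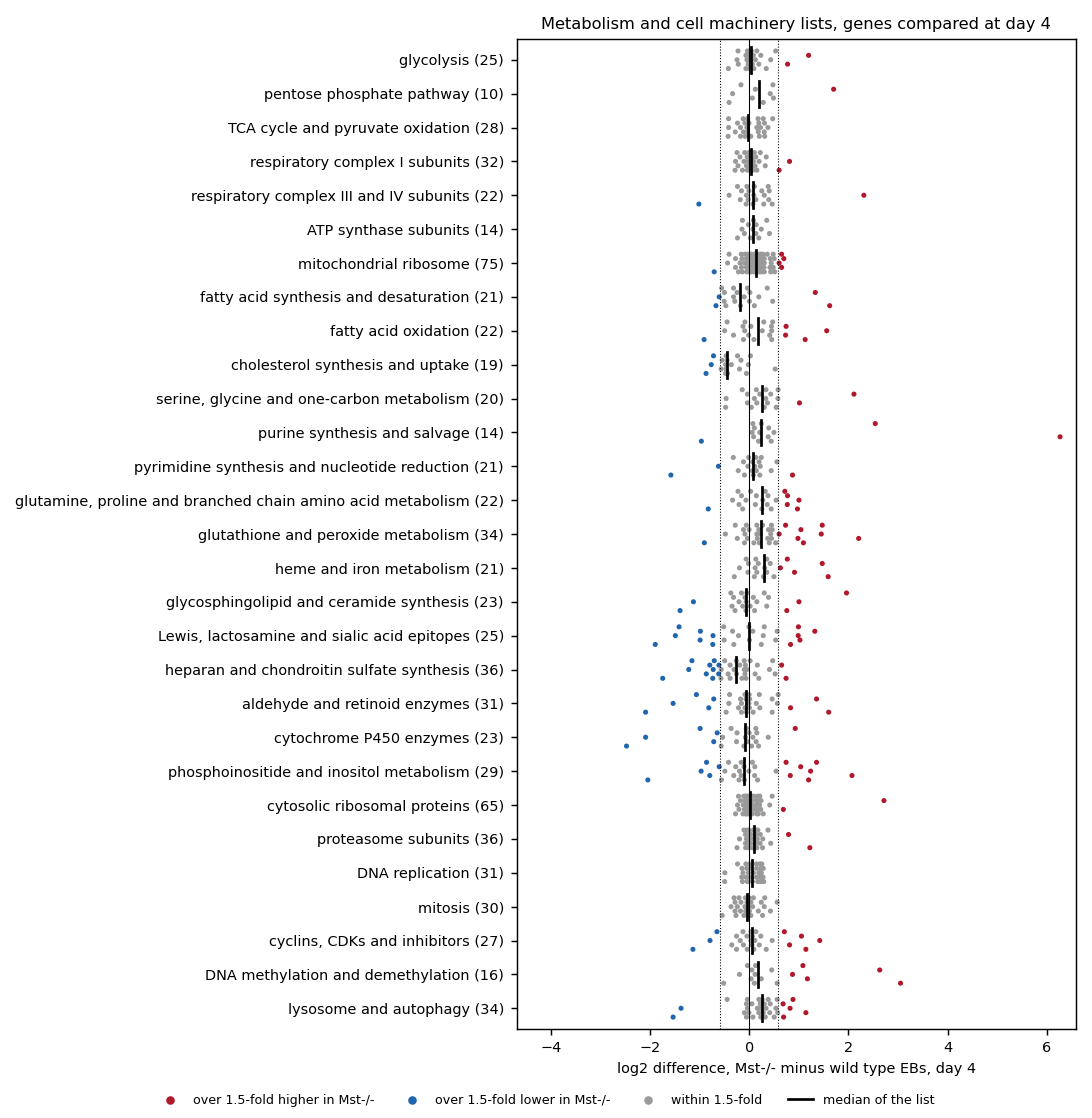
Each point is a gene compared at day 4, placed by its log2 difference (*Mst-/-* minus wild type EBs, x axis), for the metabolism and cell machinery lists (y axis, with the number of genes compared). Black bars are list medians and dotted lines the 1.5-fold threshold; respiratory chain, ribosome, replication and mitosis lists gather around 0, and cholesterol synthesis has its median at -0.45.

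Central carbon metabolism showed few differences past the threshold at day 4. Of 25 glycolysis genes 23 lay within 1.5-fold, with a median of 0.04, and all 28 genes of the TCA cycle and pyruvate oxidation did, with a median of -0.02. The glucose carriers *Slc2a1* and *Slc2a3* had 0.04 ± 0.06 (9 probe sets) and -0.07 ± 0.07 (13 probe sets), and *Hk2*, the inducible hexokinase, 0.02 ± 0.16 (25 probe sets). The exceptions were *Hk1*, with 9.13 in *Mst-/-* EBs and 7.93 in wild type EBs and a difference of 1.20 ± 0.72 (24 probe sets), and *Pdk1*, which holds pyruvate back from the TCA cycle, with 11.25 in *Mst-/-* EBs and 10.48 in wild type EBs and a difference of 0.77 ± 0.25 (13 probe sets, 0.53 in the brightest). Citrate synthase *Cs* had 0.17 ± 0.13 (14 probe sets). Subunits of the respiratory chain were as close, with 2 of 32 of complex I higher, 1 higher and 1 lower of 22 of complexes III and IV, and none of 14 of ATP synthase past the threshold. *Ndufa1* of complex I, which is X-linked, was 1.75-fold higher at 0.81 ± 0.22 (3 probe sets, 0.41 in the brightest). *Cox4i1* of complex IV had 0.38 ± 0.10 (5 probe sets). The mitochondrial ribosome had 4 genes higher and 1 lower of 75 at a median of 0.13, and the pentose phosphate pathway 1 higher of 10.

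Genes of lipid metabolism passed the threshold more often than those of central carbon metabolism. They were few in each list, and not all shares were above those of all genes. Of 19 genes of cholesterol synthesis and uptake, 3 were lower (15.8%, against 8.52% of all genes) and none higher. The median was -0.45, so that most of the list lay below 0 without passing the threshold. *Cyp51*, the lanosterol demethylase, had 11.08 in *Mst-/-* EBs and 11.85 in wild type EBs, a difference of -0.77 ± 0.20 (13 probe sets, -0.34 in the brightest). *Msmo1*, a methylsterol oxidase, had 11.26 in *Mst-/-* EBs and 11.98 in wild type EBs, a difference of -0.72 ± 0.21 (8 probe sets, -0.39 in the brightest). *Hsd17b7* was 1.83-fold lower. *Sqle*, squalene epoxidase, had -0.24 ± 0.08 (14 probe sets). Of 21 genes of fatty acid synthesis and desaturation 2 were higher and 2 lower at a median of -0.18. Each is a share of 9.52%, against 10.3% higher and 8.52% lower of all genes. *Fads1* and *Elovl2*, which make long polyunsaturated fatty acids, were 1.53-fold lower (-0.41 in the brightest probe set) and 1.60-fold lower (-0.44 as a mean over probe sets), *Scd2* had -0.47 ± 0.08 (8 probe sets) and *Fasn*, fatty acid synthase, 0.10 ± 0.10 (50 probe sets). *Acss1*, the mitochondrial acetyl-CoA synthetase, had 9.02 in *Mst-/-* EBs and 7.40 in wild type EBs, a difference of 1.62 ± 0.57 (15 probe sets). *Acsl5* was 2.51-fold higher. Of 22 genes of fatty acid oxidation 4 were higher (18.2%, against 10.3% of all genes) and 1 lower. The median was 0.18 (0.03 from the brightest probe sets). *Cpt1a*, which commits fatty acids to the mitochondrion, had 9.37 in *Mst-/-* EBs and 7.81 in wild type EBs, a difference of 1.56 ± 0.81 (28 probe sets, 0.23 in the brightest). *Slc25a20*, the carnitine carrier of the next step, had 9.34 in *Mst-/-* EBs and 8.21 in wild type EBs, a difference of 1.12 ± 0.37 (10 probe sets). *Decr1*, of the same pathway, was 1.89-fold lower (-0.47 in the brightest probe set).

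Retinoid genes included one of the larger differences in metabolism. *Cyp26a1*, which degrades retinoic acid and is expressed in the streak, had 10.16 in *Mst-/-* EBs and 12.26 in wild type EBs, a difference of -2.10 ± 0.27 (8 probe sets). *Crabp1*, which binds it in the cell, had 10.59 in *Mst-/-* EBs and 12.13 in wild type EBs, a difference of -1.54 ± 0.74 (7 probe sets). *Aldh1a2*, the synthesizing enzyme of mesoderm, was at least 1.66-fold lower (-0.44 in the brightest probe set), and *Dhrs3*, which reduces retinal, was 2.56-fold higher at 1.35 ± 0.94 (22 probe sets, 0.33 in the brightest). In all 3 of 31 aldehyde and retinoid genes were higher and 5 lower, and 1 and 5 of 23 cytochrome P450 genes. Phosphoinositide genes had 7 higher and 5 lower of 29 (4 and 6 from the brightest probe sets). *Inpp5d*, the phosphatase Ship1, had 9.87 in *Mst-/-* EBs and 7.80 in wild type EBs, a difference of 2.07 ± 1.10 (34 probe sets, 0.75 in the brightest), *Pik3cb*, a PI3-kinase catalytic subunit, was 2.35-fold higher at 1.24 ± 0.21 (28 probe sets, 0.77 in the brightest), *Dgka*, a diacylglycerol kinase, 2.56-fold higher, and its X-linked relative *Dgkk* had 9.51 in *Mst-/-* EBs and 11.55 in wild type EBs, a difference of -2.05 ± 0.27 (30 probe sets, -1.33 in the brightest).

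One-carbon metabolism showed few differences past the threshold, and a list of amino acid metabolism had a larger share of higher genes. Of 20 genes of serine, glycine and one-carbon metabolism 2 were higher (10%, against 10.3% of all genes) and none lower, at a median of 0.25. *Phgdh*, the first enzyme of serine synthesis, had 0.54 ± 0.10 (3 probe sets). *Gldc*, of the glycine cleavage system, had 0.43 ± 0.17 (33 probe sets). *Cbs*, which turns homocysteine to cystathionine, had 9.64 in *Mst-/-* EBs and 8.63 in wild type EBs, a difference of 1.01 ± 0.32 (17 probe sets). Of 22 genes of glutamine, proline and branched chain amino acids 5 were higher (22.7%, against 10.3% of all genes) and 1 lower. From the brightest probe sets 3 of 23 were higher and 1 lower. *Bcat1*, the cytosolic branched chain transaminase, had 12.44 in *Mst-/-* EBs and 11.44 in wild type EBs, a difference of 1.0 ± 0.19 (16 probe sets), its mitochondrial partner *Bcat2* was 1.71-fold higher at 0.77 ± 0.27 (12 probe sets), *Glud1*, glutamate dehydrogenase, 1.64-fold higher (0.44 in the brightest probe set), and *Pycr1* of proline synthesis 1.70-fold higher (0.29 in the brightest probe set). *Oat*, ornithine aminotransferase, was 1.78-fold lower at -0.83 ± 0.18 (13 probe sets, -0.51 in the brightest). *Glul*, glutamine synthetase, had -0.34 ± 0.08 (7 probe sets). Few genes of nucleotide metabolism passed the threshold. Of 14 purine genes 2 were higher and 1 lower, the higher ones being *Nt5e* and the X-linked *Hprt*, whose median on the wild type array lay below background so that it was at least 16.6-fold higher. On the wild type array 11 of the 12 *Hprt* probe sets had 3.02 to 6.97 and the other, the brightest, had 10.38, where the difference was 1.21. The wild type probe sets were as low at day 8, and the part of the lines' origin in this difference was not tested. The lower purine gene was *Adssl1*, an adenylosuccinate synthase gene, 1.96-fold lower (-0.24 in the brightest probe set). Of 21 pyrimidine genes 1 was higher and 2 lower. *Impdh2* and *Cad*, enzymes of new synthesis, had 0.10 ± 0.15 (18 probe sets) and 0.24 ± 0.15 (50 probe sets).

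Genes of glutathione and of heme and iron were higher in *Mst-/-* EBs more often than lower. Of 34 glutathione and peroxide genes compared, 8 were higher and 1 lower (median 0.24). *Gclm*, the regulatory subunit of the enzyme that starts glutathione synthesis, had 11.71 in *Mst-/-* EBs and 10.26 in wild type EBs, a difference of 1.45 ± 0.22 (7 probe sets, 0.95 in the brightest). *Hmox1*, heme oxygenase, had 10.70 in *Mst-/-* EBs and 9.23 in wild type EBs, a difference of 1.47 ± 0.37 (9 probe sets). *Nqo1*, a quinone reductase, was at least 3.29-fold higher. *Gstm1* and *Gstm2*, glutathione transferases, were 2.13-fold higher and 1.97-fold higher, and *Sod2*, the mitochondrial superoxide dismutase, 1.66-fold higher at 0.73 ± 0.31 (9 probe sets). *Gstm5* was the lower one, 1.88-fold lower (-0.54 in the brightest probe set), and *Gsta4* had 0.43 ± 0.11 (7 probe sets). The Gstm genes are close paralogs, and probe sets of 1 can bind transcripts of another. Of 21 heme and iron genes 5 were higher and none lower, at a median of 0.29 (3 and 0.08 from the brightest probe sets). Beside *Hmox1* these included *Slc40a1*, the iron exporter ferroportin, 1.88-fold higher at 0.91 ± 0.16 (10 probe sets), and *Alas1*, the first enzyme of heme synthesis, 1.70-fold higher (0.29 in the brightest probe set). *Tfrc*, the transferrin receptor, had 0.35 ± 0.22 (21 probe sets). The erythroid *Alas2*, X-linked, was below background on both arrays.

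Antioxidant response elements hold the letters TGACNNNGC, the site of Nrf2 with its Maf partners. They were in the windows of 9 of 30 glutathione and peroxide genes with a RefSeq promoter, against 14% of all genes with one, and of the 9, 2 were higher in *Mst-/-* EBs (*Gclm* and *Gsta3*), 1 lower (*Gstm5*) and 6 within 1.5-fold. Of the 21 without the letters 5 were higher and none lower. The window of *Gclm* (chr3:122245307-122245606, plus strand) is shown as that of the member with a match and the largest measured difference, and the capitals mark the letters on the reverse strand, beginning at -134.
Gclm: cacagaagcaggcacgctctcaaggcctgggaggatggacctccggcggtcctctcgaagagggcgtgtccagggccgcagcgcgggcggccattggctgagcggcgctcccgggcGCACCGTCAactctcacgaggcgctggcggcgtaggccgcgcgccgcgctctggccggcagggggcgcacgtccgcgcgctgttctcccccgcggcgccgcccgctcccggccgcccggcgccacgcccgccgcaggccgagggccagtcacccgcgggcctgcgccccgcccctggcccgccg

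Targets of p53 formed the list of stress genes with the most members higher. Of 30 compared, 15 were higher in *Mst-/-* EBs and 1 lower, and the median was 0.59. *Cdkn1a*, the cell cycle inhibitor p21, had 11.12 in *Mst-/-* EBs and 9.70 in wild type EBs, a difference of 1.42 ± 0.37 (5 probe sets). *Mdm2*, the feedback inhibitor of p53, had 11.24 in *Mst-/-* EBs and 10.24 in wild type EBs, a difference of 1.0 ± 0.15 (14 probe sets). *Eda2r*, an X-linked death receptor, had 11.34 in *Mst-/-* EBs and 9.94 in wild type EBs, a difference of 1.40 ± 0.17 (7 probe sets). *Trp53inp1* had 12.48 in *Mst-/-* EBs and 11.26 in wild type EBs, a difference of 1.23 ± 0.13 (6 probe sets). *Plk3* had 9.63 in *Mst-/-* EBs and 7.77 in wild type EBs, a difference of 1.86 ± 0.40 (17 probe sets). *Perp*, a membrane protein that p53 induces, was 1.91-fold higher. *Ccng1*, a classical target, stayed within the threshold at 0.46 ± 0.17 (9 probe sets). *Cd82* was the lower one, 1.89-fold lower (-0.28 in the brightest probe set). The response element for p53 (one of its repeats, searched by name) was found in the windows of 9 of 23 members with a RefSeq promoter, against 9.6% of all genes with one, and 4 of those 9 were higher, as were 7 of the 14 without it, of which 1 was lower.

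Among other stress and defence lists, unfolded protein and interferon genes were higher to a lesser degree. Those of TNF receptors and of hypoxia were not. Of 31 genes of the unfolded protein and heat shock response 7 were higher and none lower (3 from the brightest probe sets). *Hspb1*, a small heat shock protein, had 12.47 in *Mst-/-* EBs and 10.51 in wild type EBs, a difference of 1.96 ± 0.33 (7 probe sets), *Atf3* was 2.35-fold higher and *Atf4*, the factor of the integrated stress response, 1.52-fold higher at 0.60 ± 0.38 (6 probe sets, 0.54 in the brightest). *Hspa5*, the chaperone of the endoplasmic reticulum, had -0.09 ± 0.16 (13 probe sets). Of 23 interferon-stimulated and RNA-sensing genes 8 were higher and 1 lower at a median of 0.28 (0.11 from the brightest probe sets), and 3 were higher at the 99th percentile background. *Ifitm3*, a restriction factor also expressed in early germ cells, had 12.09 in *Mst-/-* EBs and 10.44 in wild type EBs, a difference of 1.65 ± 0.16 (5 probe sets), *Irf1*, a transcription factor that interferon induces, was 1.52-fold higher, and *Tlr3*, a receptor of double-stranded RNA, at least 1.94-fold higher. The lower one was *Ifnar2*, a subunit of the interferon receptor itself, 1.86-fold lower. The letters GAAANNGAA of interferon-responsive promoters were in the windows of 14 of 27 members with one, against 9.8% of all genes, and 4 of the 14 were higher, as were 3 of the 13 without them. Of 36 genes of TNF receptors and NF-kappaB 7 were lower and 1 higher, with *Tnfrsf1a* 2.57-fold lower (-0.24 in the brightest probe set), *Ripk3*, a kinase of necroptosis, 1.79-fold lower and *Nfkb1* 1.62-fold lower. The heat shock letters GAANNTTC were in the windows of 6 of 27 stress response genes (9% of all genes), and 2 of the 6 were higher, as were 5 of the 21 without them. The octamer ATGCAAAT of Oct4 was in the window of 1 of 14 pluripotent identity genes (2% of all genes), which was within 1.5-fold, while 10 of the 13 without it were higher, and the sterol response letters TCACNCCAC were in 1 of 16 windows of cholesterol genes (1.4% of all genes), also of a gene within 1.5-fold. Hypoxia genes were even, 2 higher and 2 lower of 21, with *Vegfa* 1.61-fold lower (-0.40 in the brightest probe set) and *Ndrg1* 1.61-fold higher.

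Genes of replication, mitosis, ribosome and proteasome showed few differences past the threshold. None of 31 DNA replication genes and none of 30 mitosis genes passed it, with medians of 0.06 and -0.04. *Mcm2*, of the replicative helicase, had 0.21 ± 0.15 (18 probe sets), and *Top2a* -0.29 ± 0.12 (37 probe sets). Of 65 ribosomal protein genes 2 were higher, *Rps4l*, 1.61-fold higher (1.06 in the brightest probe set), and *Rpl39l*, at least 1.58-fold higher. Of 36 proteasome subunits the 2 higher ones were the immunoproteasome genes *Psmb8* (1.73-fold higher, but -0.40 on the log2 scale in its brightest probe set) and *Psmb9* (0.03 in its brightest). Regulators of the cell cycle differed in a few members, 5 higher and 3 lower of 27. *Ccnd2* had 10.13 in *Mst-/-* EBs and 11.27 in wild type EBs, a difference of -1.14 ± 0.45 (7 probe sets, -0.43 in the brightest), while *Ccnd1* had 0.06 ± 0.07 (6 probe sets) and *Ccnd3* 0.23 ± 0.24 (9 probe sets). *Rb1* was 2.07-fold higher at 1.05 ± 0.36 (28 probe sets), the imprinted inhibitor *Cdkn1c* 1.74-fold lower (-0.22 in the brightest probe set), and *Myc* and *Mycn* had -0.26 ± 0.16 (4 probe sets) and 0.11 ± 0.10 (7 probe sets). Of 16 genes of DNA methylation and demethylation 5 were higher and none lower. *Dnmt3l*, the cofactor of new methylation in germ and ES cells, had 11.68 in *Mst-/-* EBs and 8.63 in wild type EBs, a difference of 3.05 ± 0.48 (17 probe sets), while *Dnmt3a* and *Dnmt3b* had 0.10 ± 0.23 (33 probe sets) and 0.45 ± 0.20 (26 probe sets).

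Of 34 lysosome and autophagy genes 5 were higher and 2 lower, at a median of 0.25. *Tfe3*, an X-linked regulator of lysosome genes, had 11.12 in *Mst-/-* EBs and 9.98 in wild type EBs, a difference of 1.14 ± 0.36 (20 probe sets). The cathepsin *Ctsh* had 7.77 in *Mst-/-* EBs and 9.31 in wild type EBs, a difference of -1.54 ± 0.59 (15 probe sets, -0.58 in the brightest).

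Outside the lists, the genes of largest difference included germline and patterning genes. Among the 20 highest were the germ cell genes *Tdrd12*, with 3.0 ± 0.70 (12 probe sets), *Hormad1*, at least 1.90-fold higher, and the X-linked *Usp26*, at least 6.05-fold higher. *Spp1*, the secreted protein osteopontin, was 7.01-fold higher (1.77 in the brightest probe set), and *Calcoco2*, an autophagy receptor, at least 8.37-fold higher. Among the 20 lowest were the Y-linked *Eif2s3y*, given above, *Asb4* and *Hoxb2*, a hindbrain patterning gene. *Asb4* was at least 25.6-fold lower, with 6.92 in *Mst-/-* EBs and 11.63 in wild type EBs. *Hoxb2* was at least 7.89-fold lower (-0.50 in the brightest probe set), with 5.90 in *Mst-/-* EBs and 9.94 in wild type EBs. *Capn6*, an X-linked calpain, had 7.29 in *Mst-/-* EBs and 10.36 in wild type EBs, a difference of -3.06 ± 0.64 (34 probe sets). *Rgs5*, a regulator of G protein signals in pericytes, had 7.09 in *Mst-/-* EBs and 10.37 in wild type EBs, a difference of -3.27 ± 1.53 (8 probe sets).

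At day 8, on the other pair of arrays, several of these lists stood elsewhere. The day 8 pair had 12171 genes compared, 1025 higher and 1000 lower. BMP signaling had 8 genes higher and 1 lower of 34, with a median of 0.02, against the 3, 19 and -0.68 of day 4. *Msx2* had 11.21 in *Mst-/-* EBs and 9.88 in wild type EBs at day 8. *Bmp5*, below background on the *Mst-/-* array of day 4, had 10.88 in *Mst-/-* EBs and 10.18 in wild type EBs. *Bmp4* had 11.12 in *Mst-/-* EBs and 11.14 in wild type EBs, a difference within the threshold. Hedgehog genes had a day 8 median of -0.31, the IGF list -0.47 and the antagonists and feedback genes of Wnt 0.10. Targets of p53 had 8 higher and 1 lower with a median of 0.26, glutathione and peroxide genes 5 and 2 with 0.12. Heme and iron genes, higher at day 4, had 1 higher and 8 lower of 21 at day 8, with a median of -0.26, and the red cell gene *Alas2* among them had 7.12 in *Mst-/-* EBs and 10.87 in wild type EBs. Red cell markers at day 8 had 9 of 9 compared lower at a median of -2.42, and their part in the heme list was not tested. The *Gclm* signals of day 8 were 10.82 in *Mst-/-* EBs and 10.80 in wild type EBs, with no difference past the threshold, and those of *Hmox1* were 10.59 in *Mst-/-* EBs and 9.71 in wild type EBs. One-carbon genes had 8 of 21 higher at a median of 0.53, and replication genes, none of which passed the threshold at day 4, had 7 of 31 higher at 0.43. The difference between the days was not tested.

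**Figure D5:**
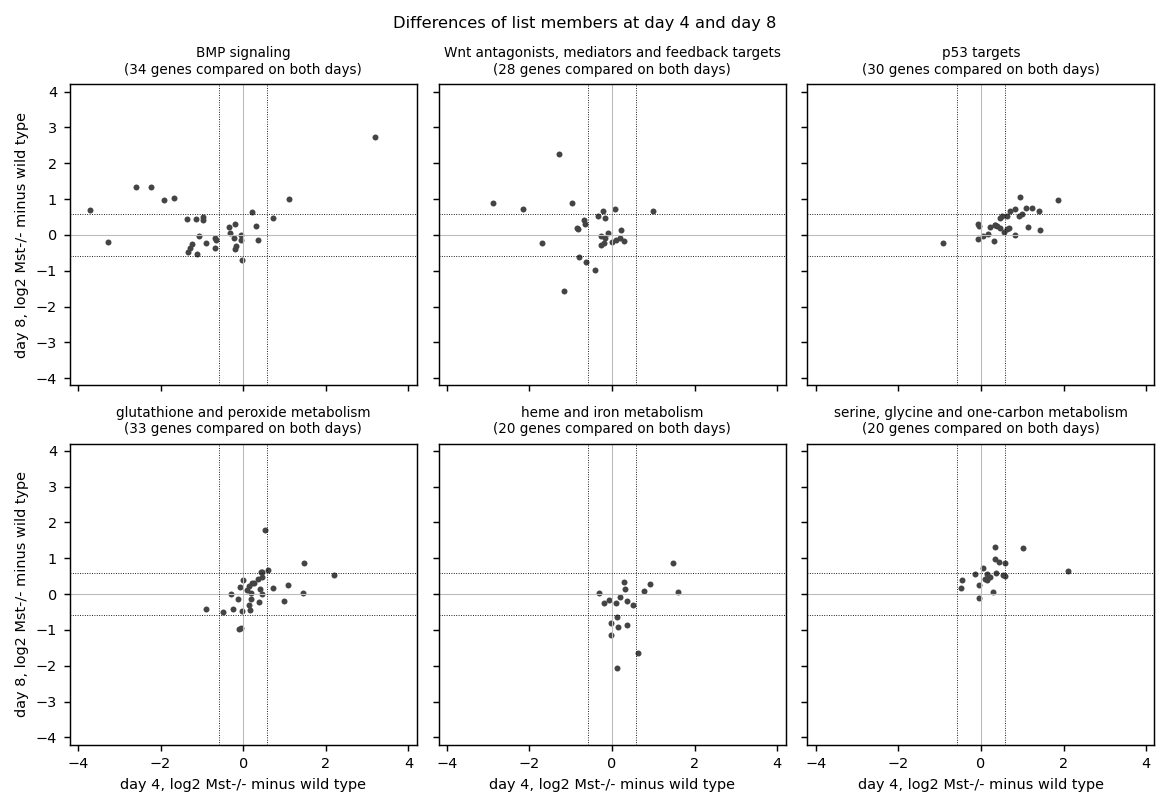
Each point is a list member compared on both days, with its log2 difference (*Mst-/-* minus wild type EBs) at day 4 on the x axis and at day 8 on the y axis, and dotted lines at 1.5-fold. BMP genes spread below 0 at day 4 and around 0 at day 8, p53 targets lie above 0 on both days for the most part, and heme and iron genes have list medians of 0.29 at day 4 and -0.26 at day 8.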

How the data were processed

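The 4 EB samples of day 4 and day 8 were hybridized to Affymetrix mouse exon arrays, 1 array each. For each of 229581 probe sets the authors deposited a log2 signal made with Affymetrix Expression Console per the submitters' processing notes (no version is given). Background correction and normalization are not given in the sources used here, and the sorted values of the day 4 arrays differed by at most 0.11. Scanner intensities were not used. In the platform annotation 209279 probe sets had 1 gene symbol, 4446 had several and 15856 had none. Its 16380 symbols were brought up to date with RefSeq names (14190 current, 2145 synonyms, 45 kept), giving 16358 genes with a median of 11 probe sets, 536 of them with 1. A gene's signal and difference are medians over its probe sets. With 1 array a group there is no test, and a gene was called at more than 1.5-fold, the threshold in the study's methods. Precision is limited by the number of arrays. The 76 gene lists and the motifs were chosen with earlier results of these data known, and the promoters shown after the values were seen. Genes are named by this rule unless said otherwise: key genes of each list, up to 8 members of the largest difference past 1.5-fold with at least 3 probe sets of which at least 75% went the same way, and the 20 highest and 20 lowest genes under the same condition. Another list is not reported here. Alternatives were other scalings, summaries, background filters and thresholds. Promoter windows are from RefSeq (GRCm38.p6), searched on both strands, with 32851 windows of 27025 genes. Python 3.11.15, numpy 2.4.6, pandas 2.3.3 and matplotlib 3.10.9 were used, and the scripts were tested on simulated data.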

Additional observations from a re-analysis of the deposited data

Results flagged for a closer look

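Of the genes named above, not counting the markers *Csf1r*, *Dcn* and *Laptm5*, 24 lay past 1.5-fold on both days and in opposite directions. Of these, 19 were below wild type at day 4 and above it at day 8 in *Mst-/-* EBs, and 5 the other way. Each day rests on 1 array a genotype, no difference between the days was tested, and one label of the day 8 *Mst-/-* array names day 4. Among genes of BMP ligands, modulators and targets, *Bmp5* had -3.72 at day 4 and 0.70 at day 8, *Bmper* had -2.23 at day 4 and 1.33 at day 8, *Msx2* had -2.60 at day 4 and 1.33 at day 8 and *Msx1* had -1.68 at day 4 and 1.04 at day 8. Among genes of Wnt ligands and feedback genes, *Wnt5a* had -3.29 at day 4 and 0.70 at day 8, *Wnt3* had -0.78 at day 4 and 1.14 at day 8, *Dkk1* had -2.15 at day 4 and 0.73 at day 8, *Frzb* had -2.88 at day 4 and 0.89 at day 8 and *Lef1* had -0.98 at day 4 and 0.89 at day 8. Among genes of Nodal signaling, *Cfc1* had -2.13 at day 4 and 1.18 at day 8 and *Foxh1* had -0.88 at day 4 and 1.46 at day 8. Among genes of receptors and the vascular cell gene *Rgs5*, *Cxcr4* had -2.84 at day 4 and 1.05 at day 8, *Lifr* had -1.05 at day 4 and 0.74 at day 8 and *Rgs5* had -3.27 at day 4 and 0.87 at day 8. Among genes of Hippo adaptors and partners, *Amot* had -2.12 at day 4 and 1.04 at day 8 and *Tead4* had -0.75 at day 4 and 0.65 at day 8. Among genes of metabolism and transport, *Cyp26a1* had -2.10 at day 4 and 2.62 at day 8, *Dgkk* had -2.05 at day 4 and 1.31 at day 8 and *Slc44a5* had -2.52 at day 4 and 1.40 at day 8. In the opposite order, *Cdh3* had 1.49 at day 4 and -0.61 at day 8, *Cpt1a* had 1.56 at day 4 and -0.79 at day 8, *Cxcl12* had 1.21 at day 4 and -1.28 at day 8, *Dhrs3* had 1.35 at day 4 and -0.95 at day 8 and *Thbs1* had 1.15 at day 4 and -0.71 at day 8. These are log2 differences, *Mst-/-* minus wild type EBs. In the brightest probe set alone the day 4 differences of *Wnt3* (-0.40), *Tead4* (-0.23), *Cpt1a* (0.23), *Cxcl12* (0.06) and *Dhrs3* (0.33) lay within 1.5-fold. Genes of the streak and mesoderm are among those lower at day 4 (*Wnt3*, *Cfc1*, *Cxcr4* and *Cyp26a1*), and the fatty acid oxidation gene *Cpt1a* and the cadherin *Cdh3* are among those higher.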

How the results depend on the processing

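With 1 array a genotype, leaving out an array was not possible, and nothing here measures the spread between cultures. No paired analysis was possible because each group has 1 array and no test was run. At a 2-fold threshold 520 genes were higher and 391 lower, and under the other alternatives both counts stayed within 1.5 times those reported. Of 532 list medians under alternatives 511 moved by less than the median SD over probe sets (0.27), and none that lay past 1.5-fold changed sign. That SD is of single genes and is not the error of a list median. Other scalings could move little, since the sorted values of the day 4 arrays differed by at most 0.11. With each gene's brightest probe set the medians were -0.36 for BMP signaling, -0.25 for Hedgehog, -0.02 for MHC class I, -0.28 for tetraspanins, -0.22 for connexins, 1.09 for pluripotent identity, -0.72 for germ layers, 0.09 for macrophage and 0.08 for red cell markers, and 6.5% of autosomal genes were higher. With the mean over probe sets, germ layer genes had -0.86 and trophoblast markers -0.44. With the 99th percentile of the receptor genes as background, the medians were -0.59 for cytochrome P450 enzymes, -2.0 for protocadherins, -0.24 for integrins, -0.58 for fibrillar matrix, 0.36 for CD antigens, 1.26 for macrophage, -0.38 for endoderm and -0.40 for trophoblast markers. Protocadherins had 0.09 where both arrays had to be above background, and macrophage markers 0.22 with no filter. In all 19 list medians changed sign under an alternative, none of them over 0.32 from 0 as reported, and with the brightest probe set 28 lists had a count of at least 4 that differed by over 1.5 times. Of 294 genes named, not counting *Cd68*, *Csf1r*, *Dcn*, *Laptm5* and *Eif2s3y*, 220 lay past 1.5-fold. Of these, 53 came within it under some alternative, 49 of them with the brightest probe set. *Psmb8* then had the opposite direction, at -0.40. The cause of these shifts was not tested, and fewer probe sets or genes enter under several of these settings. Dim genes are limited most, since 15.5% of receptor genes lay past 1.5-fold.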
